A study of Mus musculus with 16 samples.

Results

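The genes described here are the collagen and laminin chains of mouse kidney together with the nidogens Nid1 and Nid2, the proteoglycans perlecan (Hspg2) and agrin (Agrn), and the matrix proteins fibronectin (Fn1), tenascin C (Tnc), SPARC, fibrillin 1 (Fbn1) and elastin (Eln). They were chosen by symbol: every symbol with Col, digits, a and digits, every Lama, Lamb and Lamc chain, and the 9 others by name. This gave 65 of the 23935 gene symbols of the deposited table. The letters of the rule also took in Col4a3bp, whose product is a ceramide transfer protein and not a part of the matrix; it is kept in the counts and named apart. Of the 65 genes, 45 reached 1 TPM (a relative abundance per length of transcript, scaled to one fixed total in every library) in at least 4 of the 16 libraries and were tested, 20 did not, and 1 of these 20, Col9a1, was listed at 0 in every library.

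The 16 sequenced libraries hold RNA of whole kidneys of wild-type (WT) mice, 4 in each group. The control mice received PBS, a second group received the chemotherapy cisplatin, which damages tubule cells, and the other two received cisplatin after an injection of either nicotinamide mononucleotide (NMN) or nicotinamide riboside (NR). NMN carries a phosphate that NR lacks, and cells turn both into NAD. Kidneys were taken 3 days after cisplatin. The labels give no strain, sex, age or dose, nor whether replicates are separate animals, so p-values measure the spread between libraries, which may be technical. Kidney markers were present: the phosphate transporter gene Slc34a1 of the proximal tubule measured 3086 to 3448 TPM with PBS, and the uromodulin, aquaporin 2 and megalin genes were above 10 TPM in each library.

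A basement membrane is the thin sheet of matrix on which epithelial and endothelial cells and podocytes rest. It is built of a collagen IV network and a laminin network, which nidogens and perlecan link, while agrin and collagen XVIII carry heparan sulfate chains. The chains Col4a1 and Col4a2 assemble together in basement membranes of nearly all tissues, whereas Col4a3, Col4a4 and Col4a5 form the network of the mature glomerular basement membrane, and mutations in these genes cause Alport syndrome. A laminin is a trimer of an alpha, a beta and a gamma chain; Lama5, Lamb2 and Lamc1 make that of the mature glomerular basement membrane. Fibrillar collagens (Col1a1, Col1a2, Col3a1), collagen VI and fibril-associated collagens such as Col14a1 belong to the interstitial matrix between the tubules, which is made largely by fibroblasts and accumulates in renal fibrosis.

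Collagen IV genes lie in head-to-head pairs that are read away from a shared stretch of DNA. In the GRCm38 gene annotation, Col4a1 (chromosome 8, 11198423 to 11312826, minus strand) and Col4a2 (chromosome 8, 11312805 to 11449287, plus strand) overlap by 22 bases at their starts. Col4a4 (chromosome 1, 82448423 to 82586849, minus strand) and Col4a3 (chromosome 1, 82586921 to 82722059, plus strand) are parted by 71 bases, and Col4a6 and Col4a5 on chromosome X by 1308. The windows below, from 250 bases before to 50 after the start (RefSeq, GRCm38.p6), show the starts of 2 of these pairs, because the cisplatin libraries differed from PBS in unlike ways within and between them. Capitals mark the bases from the start of one gene to that of its partner, 22 bases for Col4a1 and Col4a2 and 73 for Col4a4 and Col4a3. The window of Col4a1 is chr8:11312777-11313076 (minus strand), that of Col4a2 chr8:11312555-11312854 (plus strand), and that of Col4a4, which also holds the start of Col4a3, chr1:82586800-82587099 (minus strand).
Col4a1: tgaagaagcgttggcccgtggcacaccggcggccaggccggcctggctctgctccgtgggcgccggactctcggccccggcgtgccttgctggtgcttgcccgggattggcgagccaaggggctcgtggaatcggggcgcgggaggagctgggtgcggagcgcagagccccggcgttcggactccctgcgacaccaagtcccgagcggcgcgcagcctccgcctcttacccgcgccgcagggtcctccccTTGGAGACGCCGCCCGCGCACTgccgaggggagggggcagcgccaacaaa
Col4a2: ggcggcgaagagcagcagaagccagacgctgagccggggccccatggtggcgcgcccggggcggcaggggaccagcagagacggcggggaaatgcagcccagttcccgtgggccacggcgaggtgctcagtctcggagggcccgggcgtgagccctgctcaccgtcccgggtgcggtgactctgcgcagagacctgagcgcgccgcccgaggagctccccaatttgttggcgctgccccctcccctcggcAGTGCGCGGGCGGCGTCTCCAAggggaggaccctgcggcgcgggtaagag
Col4a4: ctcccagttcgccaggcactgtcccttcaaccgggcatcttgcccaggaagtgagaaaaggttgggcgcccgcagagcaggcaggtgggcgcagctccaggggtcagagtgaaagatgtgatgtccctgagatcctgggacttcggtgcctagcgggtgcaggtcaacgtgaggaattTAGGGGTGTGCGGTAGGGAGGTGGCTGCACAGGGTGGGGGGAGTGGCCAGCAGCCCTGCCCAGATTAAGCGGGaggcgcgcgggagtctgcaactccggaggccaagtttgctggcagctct

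A second pair of windows shows one of the chains that rose with cisplatin, the laminin chain Lama5, and one that fell, the fibrillar collagen Col3a1. The Lama5 window is chr2:180225810-180226109 (minus strand) and that of Col3a1 chr1:45311288-45311587 (plus strand). Capitals mark the letters of the GC box motif GGGCGG in Lama5 and of the TATA motif TATAAA in Col3a1. Each was searched on either strand, as was CCAAT, which neither window holds. Lama5 holds 4 matches of GGGCGG and 72.7% G and C. Col3a1 holds none, has 37.7% G and C, and carries TATAAA 117 bases before its start. These are single windows and do not stand for the directions: G and C made up 47.3% to 83.3% (median 61.3%) of the windows of genes that rose and 37.7% to 75% (median 57.3%) of those of genes that fell, with Col3a1 the lowest.
Lama5: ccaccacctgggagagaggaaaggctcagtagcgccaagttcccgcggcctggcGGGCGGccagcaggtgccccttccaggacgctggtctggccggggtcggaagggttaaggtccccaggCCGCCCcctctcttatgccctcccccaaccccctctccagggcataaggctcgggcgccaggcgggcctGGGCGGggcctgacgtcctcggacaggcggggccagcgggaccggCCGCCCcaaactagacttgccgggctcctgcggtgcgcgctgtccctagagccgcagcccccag
Col3a1: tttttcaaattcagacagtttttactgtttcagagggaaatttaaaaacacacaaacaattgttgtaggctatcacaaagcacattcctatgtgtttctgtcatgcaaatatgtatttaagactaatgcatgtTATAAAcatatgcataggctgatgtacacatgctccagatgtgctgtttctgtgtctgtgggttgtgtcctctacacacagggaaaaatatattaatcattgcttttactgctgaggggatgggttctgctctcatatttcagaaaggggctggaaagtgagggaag

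Windows were found for 46 of the 65 genes, 52 windows in all, and they were searched on both strands for 6 motifs. GGGCGG was present in 63.5% of these windows and in 35.7% of all 32851 windows of this length. CCAAT was present in 28.8% against 37.4%, TATAAA in 13.5% against 13.6%, the AP-1 motif TGANTCA in 1.92% against 7.81%, the SMAD box CAGACA in 26.9% against 21%, and GGGGCGGGG, which contains GGGCGG, in 13.5% against 11.4%. GGGCGG was in 9 of 13 windows of genes that rose with cisplatin and in 6 of 11 windows of genes that fell. A match is a description of the letters and not a site.

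With cisplatin, 6 of 11 laminin chains, agrin and collagen XVIII rose, whereas the glomerular collagen IV chains Col4a3 and Col4a4 and most interstitial collagens fell. Of the 45 tested genes 12 rose and 18 fell against PBS (limma on log2(TPM + 1), adjusted p under 0.05 over all 12960 tested genes), where 40.7% of all tested genes rose and 18.6% fell. These are 26.7% and 40% of the 45 genes, below the background for rises and above it for falls. Laminins made up 6 of the rises, and fibrillar, VI and fibril-associated collagens 0 of the rises and 9 of the falls. Groups did not overlap for 11 of the 45 genes upward and 9 downward (24.4% and 20%), where 35.3% and 15.6% of all tested genes were without overlap in these directions. The median log2 change was -0.30 for the 45 genes and 0.27 for all genes. Because all TPM of a library share that total, another scaling was tried: after median-of-ratios scaling, which brought the median of all genes to 0, 8 rose and 21 fell (29.2% and 28.6% of all genes), and the share of rises among calls went from 40% to 27.6%.

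**Figure D1:**
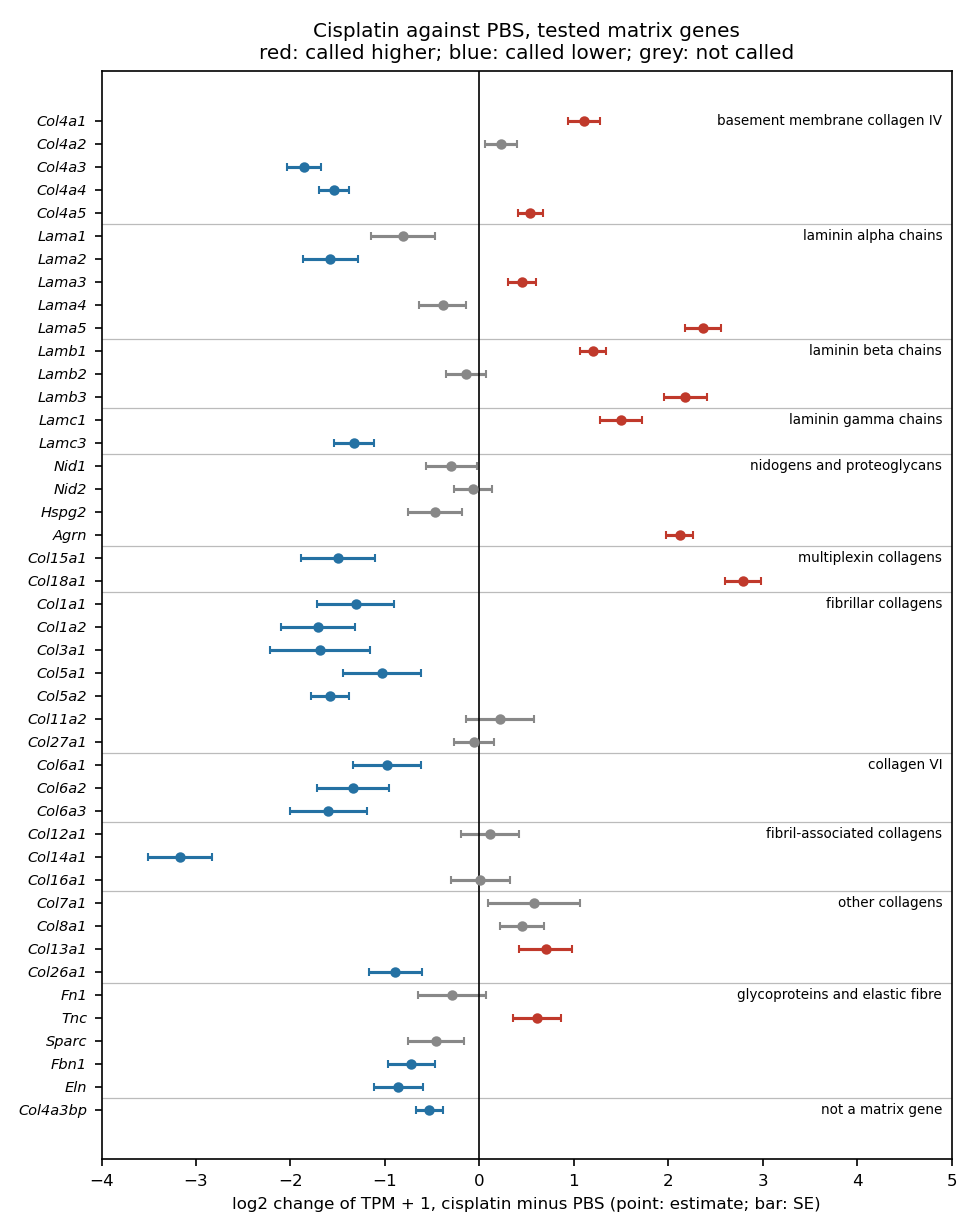
The log2 change of TPM + 1 between cisplatin and PBS for 44 of the 45 tested genes, grouped by role; points are estimates and bars their SE from limma, and red, blue and grey mark genes called higher, lower and not called. Laminin chains, Agrn and Col18a1 reach up to 2.79 on the right, while the interstitial collagens lie mostly on the left, down to -3.17 for Col14a1.

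The libraries were not alike within groups, which touches much of what follows. PBS library 1 was the lowest of its group in 33 of 45 tested genes and PBS library 2 the highest in 28. Cisplatin library 1 was the highest of its group in 32 and NMN library 2 in 26. PBS libraries 2 and 3 both lay above PBS libraries 1 and 4 in 30 of the 45 genes. Without cisplatin library 1, the count against PBS was 9 rises and 20 falls, and it was the same without the 3 libraries of lowest array weight (PBS 1, cisplatin 1 and cisplatin 3), a choice made after seeing the data. Total TPM of the listed genes was 860428 to 903678 per library, and 11535 to 12549 genes reached 1 TPM; TPM holds no count of reads, and the depth of the libraries is therefore unknown.

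The collagen IV genes did not move as a family. Col4a1 rose while its head-to-head neighbour Col4a2 was not called, the neighbours Col4a3 and Col4a4 both fell, and Col4a5 rose slightly. Col4a1 measured 26.6, 40.0, 46.7 and 34.3 TPM in PBS libraries 1 to 4 and 87.0, 82.7, 68.6 and 79.6 TPM with cisplatin. The cisplatin libraries all lay above the PBS libraries (log2 change 1.11, SE 0.17, limma adjusted p = 1.82e-05).

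Col4a2 measured 21.6, 32.5, 33.8 and 25.95 TPM with PBS and 46.7, 30.1, 31.0 and 27.6 TPM with cisplatin. The groups overlapped, and cisplatin library 1 was the only cisplatin library above the PBS range (log2 change 0.23, SE 0.17, limma adjusted p = 0.244; -0.08 after median-of-ratios scaling). The ratio of Col4a1 to Col4a2 in TPM was 1.23 to 1.38 in the PBS libraries and 1.86 to 2.88 in the cisplatin libraries, which was described without a test.

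Col4a3 measured 28.8, 33.5, 32.4 and 30.0 TPM with PBS and 9.28, 8.40, 4.55 and 10.3 TPM with cisplatin. Col4a4 measured 27.0, 29.1, 25.8 and 30.5 TPM with PBS and 10.5, 10.5, 5.74 and 10.2 TPM with cisplatin. Both genes were lower in each cisplatin library than in any PBS library, and cisplatin library 3 was the lowest for both (log2 changes -1.86, SE 0.18, and -1.54, SE 0.16; limma adjusted p = 8.49e-08 and 2.41e-07). The ratio of Col4a3 to Col4a4 stayed within 0.793 and 1.26 over the 8 libraries.

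Col4a5, the X-linked partner of Col4a3 and Col4a4 in the protein, did not follow them. It measured 8.31, 10.5, 8.07 and 9.42 TPM with PBS and 16.5, 12.6, 12.7 and 12.8 TPM with cisplatin, without overlap (log2 change 0.54, SE 0.13, limma adjusted p = 0.00187), and after median-of-ratios scaling it was not called. Col4a6, which pairs with Col4a5 head to head, stayed at or under 0.81 TPM in each of the 16 libraries and was not tested. Col4a3, Col4a4 and Col4a5 together made up 45.1% to 56.9% of collagen IV TPM in the PBS libraries and 18.7% to 23.6% in the cisplatin libraries, whereas the sum of the family was 113 to 147 and 123 to 170 TPM.

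Podocytes are the source of Col4a3 and Col4a4 in the glomerulus, so their markers are given beside these falls. Of 12 podocyte markers 9 fell and 1 rose with cisplatin (11 and 0 after median-of-ratios scaling). Of all tested genes 18.6% fell and 40.7% rose (28.6% and 29.2% after that scaling). None of the 12 markers was at 0 in all libraries. The nephrin gene Nphs1 fell from 9.92 ± 4.47 to 2.87 ± 2.32 TPM (SD, n = 4). The summed level of the 12 markers was 123 to 241 TPM in the PBS libraries, 149 TPM in cisplatin library 1 and 44.3 to 51.3 TPM in the other 3 cisplatin libraries. In cisplatin library 1, where the podocyte sum was within the PBS range, Col4a3 stood at 9.28 and Col4a4 at 10.5 TPM. This is a single library, and the part of podocyte RNA in these falls was not tested. In whole-organ RNA, fewer cells of a type and less RNA per cell cannot be told apart.

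**Figure D2:**
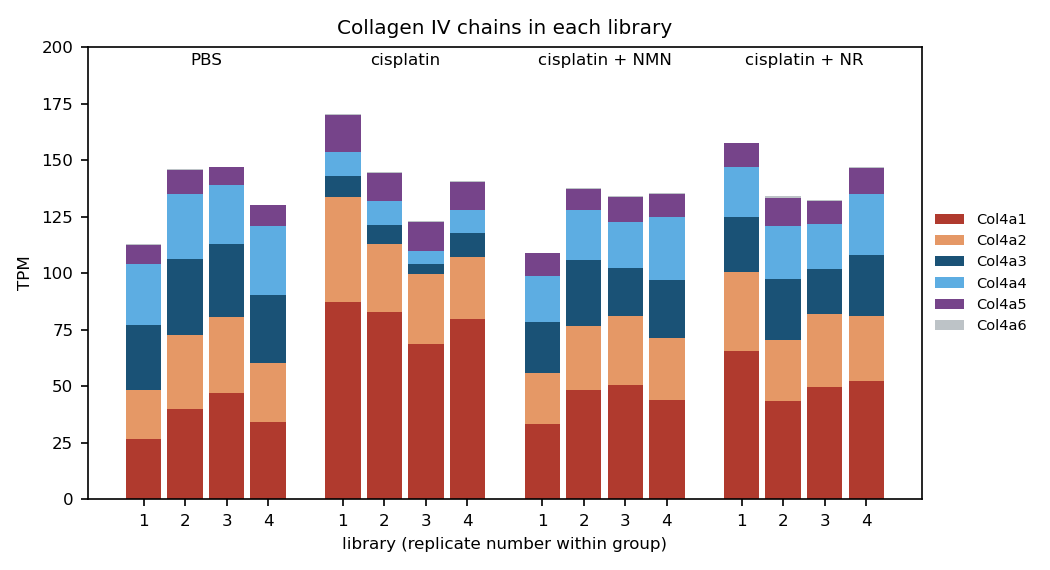
TPM of the 6 collagen IV chains stacked for each of the 16 libraries, by group and replicate number. The blue segments (Col4a3 and Col4a4) shrink in all 4 cisplatin libraries, to 4.55 to 10.5 TPM each, while the red segment (Col4a1) is tallest there, at 68.6 to 87.0 TPM.

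Laminins rose in summed level, from 70.2 to 106 TPM in the PBS libraries to 223 to 265 TPM with cisplatin, but not in every chain. The sum weighs chains of high level most, such as Lama5 (mean 17.5 TPM with PBS and 92.4 TPM with cisplatin). Among the 11 chains, 6 rose (among them Lama3, Lama5, Lamb1, Lamb3 and Lamc1), 2 fell (Lama2 and Lamc3), and Lama1, Lama4 and Lamb2 were not called. Of all tested genes 40.7% rose and 18.6% fell (29.2% and 28.6% after median-of-ratios scaling). After median-of-ratios scaling 5 rose and 3 fell, with Lama3 lost and Lama1 added as a fall; 5 also rose without cisplatin library 1 and without the 3 libraries of lowest weight.

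Lama5, the main alpha chain of adult kidney basement membranes, measured 17.1, 24.8, 16.02 and 11.95 TPM with PBS and 101, 82.5, 107 and 79.5 TPM with cisplatin (log2 change 2.37, SE 0.19, limma adjusted p = 5.79e-09). Each cisplatin library was above each PBS library. Its share of all laminin alpha TPM was 58.5% to 70.2% with PBS and 91.2% to 93.9% with cisplatin. Lama3, the alpha chain of epithelial anchoring, rose less, from 3.43, 3.51, 3.83 and 3.29 TPM to 6.68, 4.71, 5.12 and 4.39 TPM (log2 change 0.45, SE 0.15, limma adjusted p = 0.0175), and it was not called without cisplatin library 1.

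Lama2, the alpha chain of muscle and mesenchymal basement membranes, moved the other way. It measured 1.41, 4.09, 3.90 and 1.84 TPM with PBS and 0.71, 0.13, 0.11 and 0 TPM with cisplatin (log2 change -1.58, SE 0.29, limma adjusted p = 0.000138). Lama1, a chain of embryonic and tubular basement membranes, measured 1.91, 4.8, 2.59 and 2.42 TPM with PBS and 1.39, 0.96, 1.05 and 1.31 TPM with cisplatin. The Lama1 groups did not overlap, but its adjusted p was 0.0502 (limma; log2 change -0.81, SE 0.34). It passed the threshold in 12 of 25 other settings, whose adjusted p ranged from 0.0102 to 0.158. Lama4, a chain of vessels, measured 0.54 to 1.68 TPM with PBS and 0 to 0.90 TPM with cisplatin.

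Among the beta chains, Lamb1, common in developing and adult tissues, rose from 16.7, 21.9, 24.9 and 23.9 TPM to 54.2, 50.6, 45.9 and 53.5 TPM without overlap (log2 change 1.20, SE 0.14, limma adjusted p = 5.16e-07). Lamb2, which is mutated in Pierson syndrome with congenital nephrosis, measured 19.5 to 21.2 TPM with PBS and 14.7 to 22.4 TPM with cisplatin (log2 change -0.14, SE 0.21, limma adjusted p = 0.589). The 2 chains were near equal with PBS, where the ratio of Lamb1 to Lamb2 was 0.853 to 1.26, and unequal with cisplatin, where it was 2.26 to 3.12. Lamb3 was under 1 TPM in each PBS library (0.39, 0.56, 0.47 and 0.55 TPM) and measured 6.33, 6.42, 5.74 and 4.75 TPM with cisplatin (log2 change 2.18, SE 0.23, limma adjusted p = 1.72e-07). It passed the filter on low values through the libraries given cisplatin.

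Among the gamma chains, Lamc1, which is part of most laminins, rose from 5.54, 12.9, 12.8 and 10.5 TPM to 37.6, 27.0, 27.5 and 29.2 TPM without overlap (log2 change 1.5, SE 0.22, limma adjusted p = 1.26e-05). Lamc3 was low and fell, from 1.53 to 3.09 TPM with PBS to 0.30 to 0.46 TPM with cisplatin (log2 change -1.33, SE 0.21, limma adjusted p = 2.19e-05).

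Among the heparan sulfate carriers, Agrn and Col18a1 rose and Hspg2 did not. Agrn measured 32.7, 44.99, 40.3 and 28.6 TPM with PBS and 172, 153, 150 and 166 TPM with cisplatin, the smallest adjusted p of the 45 genes (log2 change 2.12, SE 0.14, limma adjusted p = 4.32e-10). Col18a1, whose C-terminal fragment is endostatin, measured 27.4, 40.6, 37.8 and 38.4 TPM with PBS and 298, 245, 241 and 232 TPM with cisplatin (log2 change 2.79, SE 0.19, limma adjusted p = 6.9e-10). For both genes the cisplatin and PBS libraries were far apart, and Col18a1 had the highest TPM of the 65 genes in each cisplatin library.

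Perlecan (Hspg2) measured 11.2, 29.1, 33.0 and 15.8 TPM with PBS and 23.8, 12.5, 13.1 and 11.02 TPM with cisplatin. The groups overlapped (log2 change -0.47, SE 0.29, limma adjusted p = 0.174), and without cisplatin library 1 or after median-of-ratios scaling Hspg2 was called lower. The linker genes Nid1 and Nid2 were not called: Nid1 measured 4.16 to 10.1 TPM with PBS and 5.20 to 5.43 TPM with cisplatin, and Nid2 3.10 to 5.82 and 2.52 to 4.88 TPM. Col15a1, the other multiplexin and a collagen of vessel and muscle basement membranes, fell from 6.45, 16.6, 17.1 and 8.28 TPM to 7.26, 1.48, 4.32 and 2.14 TPM (log2 change -1.50, SE 0.39, limma adjusted p = 0.00297). The groups overlapped through cisplatin library 1 and PBS library 1.

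**Figure D3:**
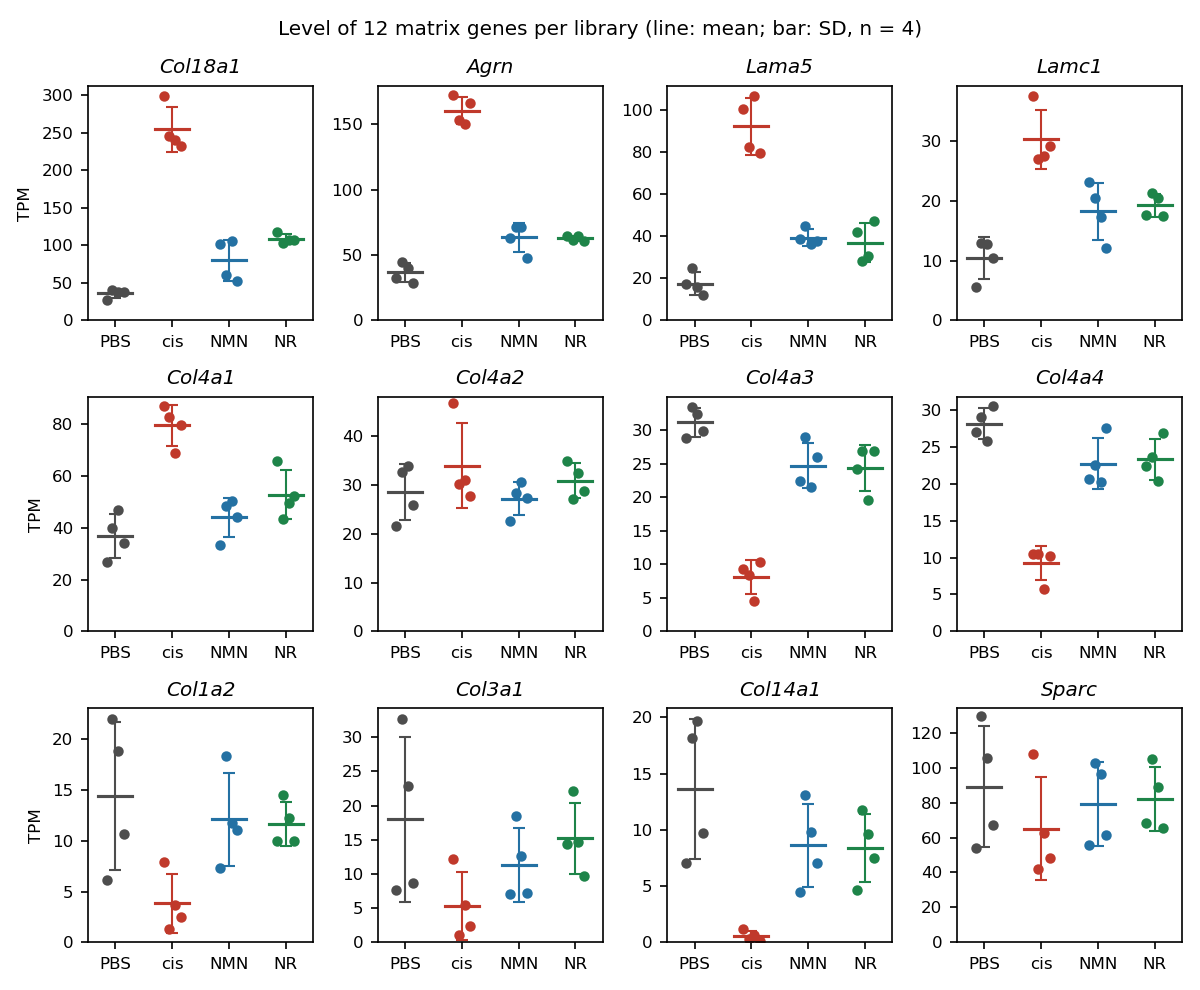
TPM of 12 matrix genes in each library (points) with the group mean (line) and SD (bar, n = 4); cis is cisplatin, and NMN and NR are cisplatin with that precursor. In the first row the cisplatin points are highest, at 232 to 298 TPM for Col18a1; Col4a3, Col4a4 and Col14a1 are lowest with cisplatin, and Sparc overlaps in all groups.

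Interstitial collagens were lower with cisplatin. Of the 26 fibrillar, VI and fibril-associated chains, 13 were tested, 0 rose and 9 fell (Col1a1, Col1a2, Col3a1, Col5a1, Col5a2, Col6a1, Col6a2, Col6a3 and Col14a1). The median log2 change of the 13 was -1.31, against 0.27 for all genes. The count of falls was also 9 after median-of-ratios scaling and was 7 to 9 with each library left out; it was 7, with Col5a1 and Col6a1 not called, without PBS library 2, PBS library 3 or cisplatin library 4. Their summed level was 75.2, 170, 151 and 79.5 TPM in PBS libraries 1 to 4 and 89.7, 38.1, 62.4 and 43.3 TPM with cisplatin, so that cisplatin library 1 lay within the PBS range.

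The chains of collagen I, the main fibrillar collagen, are Col1a1 and Col1a2. Col1a1 measured 4.06, 15.99, 14.5 and 7.35 TPM with PBS and 7.41, 1.93, 2.99 and 2.03 TPM with cisplatin (log2 change -1.31, SE 0.41, limma adjusted p = 0.0104). Col1a2 measured 6.13, 22.0, 18.8 and 10.6 TPM with PBS and 7.92, 1.28, 3.63 and 2.49 TPM with cisplatin (log2 change -1.71, SE 0.39, limma adjusted p = 0.00109). In both, cisplatin library 1 lay within the PBS range, and the other 3 cisplatin libraries were below all PBS libraries.

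Col3a1, the fibrillar collagen of distensible tissues, measured 7.65, 32.6, 22.9 and 8.69 TPM with PBS and 12.2, 1.09, 5.54 and 2.47 TPM with cisplatin (log2 change -1.69, SE 0.53, limma adjusted p = 0.013). It was not called when only the compared groups entered the fit (adjusted p = 0.0556, the highest of 26 other settings, the lowest being 0.000243). Col5a2, a regulator of fibril diameter and the tail-to-tail neighbour of Col3a1 on chromosome 1, was steadier: it measured 2.73, 4.48, 3.90 and 4.18 TPM with PBS and 1.01, 0.48, 0.60 and 0.37 TPM with cisplatin, without overlap (log2 change -1.58, SE 0.20, limma adjusted p = 2.48e-06).

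Col14a1, a fibril-associated collagen of fibroblasts, had the lowest log2 change of the 45 genes. It measured 7.01, 18.1, 19.7 and 9.74 TPM with PBS and 1.17, 0.26, 0.68 and 0.14 TPM with cisplatin (log2 change -3.17, SE 0.34, limma adjusted p = 3.75e-07), and the groups did not overlap. The collagen VI chains Col6a1, Col6a2 and Col6a3, which form the beaded filaments around cells, fell with log2 changes of -0.98, -1.34 and -1.60 (limma adjusted p = 0.0247, 0.00574 and 0.00266). Col6a1 measured 2.57 to 9.02 TPM with PBS and 1.02 to 4.94 TPM with cisplatin, and was not called without PBS library 2 or 3 or cisplatin library 2 or 4.

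The fibrillar collagen of highest level was not of this pattern. Col27a1, a collagen of cartilage, measured 22.9, 35.1, 32.5 and 16.5 TPM with PBS and 35.8, 22.0, 24.3 and 18.8 TPM with cisplatin (log2 change -0.06, SE 0.21, limma adjusted p = 0.818). Col11a2, Col12a1 and Col16a1 were not called either, with log2 changes of 0.22, 0.11 and 0.01.

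Most tested markers of fibroblasts, which largely make the interstitial matrix, fell with cisplatin. Of 10 tested fibroblast markers 6 fell and 1 rose, where 18.6% and 40.7% of all tested genes did. The marker that rose was Ly6a, the one of highest level, from 651 ± 32.5 to 1020 ± 177 TPM (SD, n = 4). How far any of these markers is confined to fibroblasts was not tested. The chemokine gene Cxcl12 fell from 63.1 ± 27.2 to 2.60 ± 0.595 TPM and the transcription factor gene Tcf21 from 17.8 ± 6.03 to 1.27 ± 1.60 TPM (SD, n = 4). The summed level of the whole list was 720 to 890 TPM with PBS and 853 to 1290 TPM with cisplatin, higher in 3 of 4 cisplatin libraries than in any PBS library. Without Ly6a the sum was 74.8, 205, 194 and 128 TPM in PBS libraries 1 to 4 and 36.9, 15.7, 24.7 and 15.1 TPM with cisplatin, and none of its genes was at 0 in all libraries. PBS library 1 was the lowest and cisplatin library 1 the highest of their groups both in this sum and for Col1a2. That order was not particular to them. Among the 12 genes that rose with cisplatin, PBS library 1 was the lowest in 8 and cisplatin library 1 the highest in 9.

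Markers of smooth muscle and mesangial cells (6 of 10 fell and 1 rose, or 7 and 0 after median-of-ratios scaling, with sums of 96.1 to 211 TPM with PBS and 27.3 to 101 TPM with cisplatin) and of endothelium (10 of 12 fell, with sums of 193 to 381 and 92.0 to 186 TPM) were lower as well. Markers of injured tubule rose in 8 of 8 cases, from a sum of 251 to 327 TPM to 5130 to 6450 TPM, and adipose markers rose in 7 of 7, from 25.4 to 125 TPM to 224 to 411 TPM. Of all tested genes 40.7% rose and 18.6% fell with cisplatin (29.2% and 28.6% after median-of-ratios scaling). The part of any of these marker lists in the matrix changes was not tested. Of the myofibroblast genes, Tagln fell from 33.3 ± 12.1 to 14.8 ± 3.46 TPM, and Acta2 measured 27.3 ± 10.0 and 18.0 ± 2.66 TPM (SD, n = 4; limma adjusted p = 0.0524). Of 8 macrophage markers 2 rose and 1 fell.

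**Figure D4:**
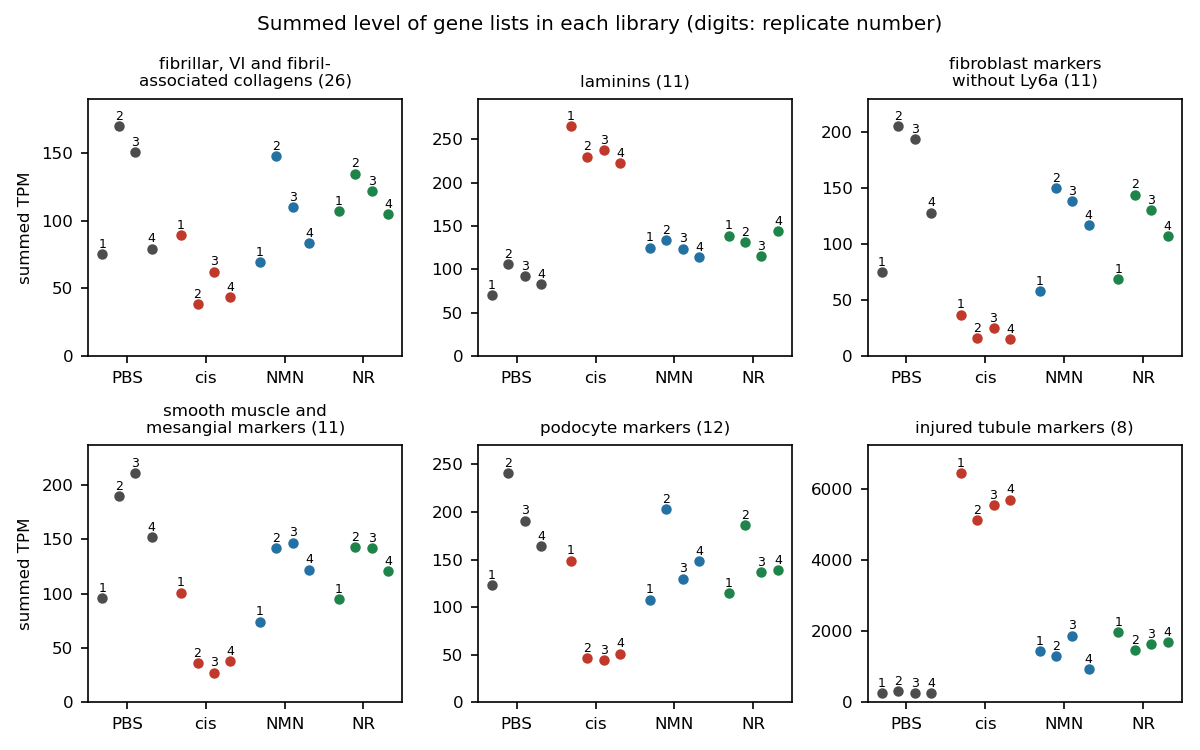
Summed TPM in each library, with the replicate number at each point, for interstitial collagens, laminins and 4 marker lists (number of genes in brackets; cis is cisplatin, NMN and NR are cisplatin with that precursor). Cisplatin library 1 is the highest cisplatin library in each of the 6 panels, at 89.7 TPM for the interstitial collagens.

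The glycoproteins and elastic fibre genes showed no common direction. Fn1, which encodes fibronectin, measured 3.8, 12.3, 9.7 and 4.83 TPM with PBS and 9.24, 4.50, 3.79 and 5.59 TPM with cisplatin (log2 change -0.29, SE 0.36, limma adjusted p = 0.512). Sparc, a collagen-binding protein gene, measured 54.2, 129, 105 and 67.3 TPM with PBS and 108, 41.8, 62.5 and 48.4 TPM with cisplatin (log2 change -0.46, SE 0.30, limma adjusted p = 0.205), and was called lower without cisplatin library 1. Both had overlapping groups.

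Tnc, a matrix protein of wounds, rose from 0.41, 1.56, 0.89 and 0.47 TPM to 3.61, 1.03, 1.76 and 1.11 TPM with overlap (log2 change 0.61, SE 0.25, limma adjusted p = 0.0435). It passed the filter on low values only through the cisplatin libraries, the group where it is high. The call held in 11 of 25 other settings, whose adjusted p ranged from 0.0146 to 0.752, and was lost without cisplatin library 1 (0.186) and without the 3 libraries of lowest weight (0.752). The elastic fibre genes Eln and Fbn1 fell, with Eln at 3.32 to 7.12 TPM with PBS and 0.98 to 3.65 TPM with cisplatin (log2 change -0.86, SE 0.26, limma adjusted p = 0.0083) and Fbn1 at 0.75 to 2.13 and 0.16 to 0.84 TPM (log2 change -0.72, SE 0.25, limma adjusted p = 0.0178).

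Of the remaining collagens, Col13a1, a transmembrane collagen, rose from 0.10 to 0.33 TPM to 0.40 to 1.84 TPM (log2 change 0.7, limma adjusted p = 0.0375). This call was made in 17 of 25 other settings, whose adjusted p ranged from 0.0149 to 0.538; it was lost after median-of-ratios scaling, without PBS library 1, 3 or 4 and without cisplatin library 1 or 3. Col26a1 fell from 2.31 to 4.56 TPM to 0.89 to 2.39 TPM (log2 change -0.89, limma adjusted p = 0.0105). Col7a1, the collagen of anchoring fibrils, and Col8a1 were not called. Among the 20 genes that did not pass the filter, Col6a5 reached 2.97 TPM in PBS library 3 and Col9a3 2.25 TPM in cisplatin library 3, and the others stayed at or under 1.53 TPM. Col17a1, the transmembrane collagen of hemidesmosomes, was at 0.37 to 0.92 TPM with cisplatin and at most 0.17 TPM in the other 12 libraries. Col4a3bp fell from 11.6 to 15.9 TPM to 8.45 to 9.97 TPM (log2 change -0.53, SE 0.14, limma adjusted p = 0.00273).

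Of 27 tested genes of collagen processing 11 rose and 4 fell (40.7% and 14.8%, near the 40.7% and 18.6% of all tested genes), with 8 and 8 after median-of-ratios scaling. Loxl4, a lysyl oxidase gene, measured 0.275 ± 0.122 TPM with PBS and 2.82 ± 0.771 TPM with cisplatin, and passed the filter on low values only through the cisplatin libraries. Serpinh1, the collagen chaperone, rose from 54.6 ± 10.6 to 141 ± 13.9 TPM (SD, n = 4). The lysyl hydroxylase gene Plod2 rose from 8.52 ± 1.86 to 27.2 ± 5.74 TPM. Of 27 matrix receptors 17 rose and 5 fell (63% and 18.5%), with a median log2 change of 1.20 against 0.27 for all genes.

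Itga3, a laminin-binding integrin subunit, rose from 11.1 ± 3.84 to 150 ± 12.3 TPM, the hyaluronan receptor gene Cd44 from 0.475 ± 0.268 to 13.3 ± 1.47 TPM, and the syndecan gene Sdc4 from 103 ± 9.78 to 294 ± 21.8 TPM (SD, n = 4). Of 20 other basement membrane genes 4 rose and 10 fell (2 and 11 after median-of-ratios scaling). Of all tested genes 40.7% rose and 18.6% fell (29.2% and 28.6% after that scaling). Tinagl1 rose from 26.6 ± 3.77 to 160 ± 15.9 TPM, whereas its relative Tinag, of tubular basement membranes, fell from 67.6 ± 5.47 to 30.7 ± 1.57 TPM and Vwa1 from 31.4 ± 6.37 to 3.36 ± 1.07 TPM. Of 22 other interstitial matrix genes 14 fell and 4 rose, where 18.6% and 40.7% of all tested genes did. Those that rose included the osteopontin gene Spp1 (511 ± 88.1 to 8190 ± 969 TPM). The matricellular genes Ctgf (55.6 ± 21.4 to 288 ± 49.5 TPM) and Cyr61 (16.5 ± 2.66 to 155 ± 20.1 TPM) were also among them.

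With NMN before cisplatin, matrix genes differed in both directions from cisplatin alone, whose libraries also entered the comparison with PBS. Against cisplatin 16 of the 45 genes were higher and 10 lower, 35.6% and 22.2% of them, where 15.1% of all tested genes were higher and 34% lower (limma, adjusted p under 0.05). After median-of-ratios scaling 19 were higher and 7 lower (22.4% and 23.3% of all genes), which made 73.1% of the calls higher ones in place of 61.5%. The count of higher genes rested on single libraries: it was 8 without NMN library 4, 9 without NMN library 2, 10 without cisplatin library 2 and 20 without cisplatin library 1. Groups did not overlap for 7 of the 45 genes upward and 11 downward (15.6% and 24.4%), where 13.4% and 30.9% of all tested genes were without overlap in these directions.

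With NR before cisplatin, 17 of the 45 genes (37.8%) were higher and 8 (17.8%) lower than with cisplatin, where 14.4% and 32.2% of all tested genes were (18 and 7 after median-of-ratios scaling, with 21.5% and 22.1% of all genes). These comparisons and that with PBS share the cisplatin libraries, so their values are given side by side and no likeness between them is taken as a result. Groups did not overlap for 13 of the 45 genes upward and 9 downward (28.9% and 20%), where 12.7% and 29.1% of all tested genes were without overlap. Leaving out each replicate in turn gave 12 to 17 higher genes.

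Among the basement membrane genes, Agrn was at 63.1, 71.3, 71.4 and 48.1 TPM with NMN and at 64.3, 61.4, 64.4 and 61.0 TPM with NR. All 8 values were below the lowest cisplatin value, 150 TPM (log2 change -1.34, SE 0.14, for each; limma adjusted p = 4.76e-07 and 6.35e-07). Col18a1 measured 102, 60.8, 105 and 52.6 TPM with NMN and 117, 103, 107 and 107 TPM with NR. NMN libraries 1 and 3 were near the NR libraries, and NMN libraries 2 and 4 were lower (log2 changes against cisplatin -1.71 and -1.21, SE 0.19; limma adjusted p = 9.42e-07 and 4.7e-05).

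Lama5 measured 38.7, 45.03, 36.3 and 37.9 TPM with NMN and 41.9, 28.1, 30.7 and 47.5 TPM with NR (log2 changes against cisplatin -1.20 and -1.32, SE 0.19; limma adjusted p = 4.94e-05 and 2.31e-05). Each of these libraries was below each cisplatin library. Lamb1, Lamb3, Lamc1 and Col4a1 were also lower under each precursor than with cisplatin, Lamc1 not after median-of-ratios scaling. The calls of Lama3 and Col4a5 were made with NMN and not with NR (limma adjusted p = 0.123 and 0.1 with NR). Both NMN calls were lost after that scaling, and they held in 19 of 25 (Lama3) and 22 of 26 (Col4a5) other settings. The difference between NMN and NR was not called for either (adjusted p = 1).

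The collagen IV chains of the glomerulus were higher than with cisplatin. Col4a3 measured 22.5, 28.9, 21.6 and 25.95 TPM with NMN and 24.2, 26.9, 19.6 and 26.9 TPM with NR (log2 changes against cisplatin 1.53 and 1.51, SE 0.18; limma adjusted p = 2.27e-06 and 3.39e-06). Col4a4 measured 20.6, 22.5, 20.2 and 27.6 TPM with NMN and 22.4, 23.6, 20.3 and 26.9 TPM with NR (log2 changes 1.24 and 1.27, SE 0.16). Col4a3, Col4a4 and Col4a5 made up 39.5% to 48.8% of collagen IV TPM in the NMN libraries and 36.1% to 46.8% in the NR libraries. Of 12 podocyte markers 7 were higher and 1 lower than cisplatin with NMN, and 7 and 0 with NR (8 and 0, and 9 and 0, after median-of-ratios scaling). Of all tested genes 15.1% were higher and 34% lower with NMN, and 14.4% and 32.2% with NR. The podocyte markers summed to 108 to 203 TPM with NMN and 115 to 186 TPM with NR. The distal and collecting markers summed to 1100 to 2000 TPM with NMN and 1010 to 1690 TPM with NR. Proximal tubule markers summed to 40600 to 48300 and 34500 to 41300 TPM. The part of any of these markers in the collagen IV levels was not tested.

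Of the 13 tested interstitial collagens 7 were higher than cisplatin with NMN and 10 with NR, and 0 were lower in either, where 15.1% and 14.4% of all tested genes were higher. The NMN count was 9 after median-of-ratios scaling and 10 without cisplatin library 1, and it was 4 without cisplatin library 2 or 4 or NMN library 2, 3 or 4. The NR count was 6 without cisplatin library 2 or 4 or NR library 2. Col14a1 measured 4.47, 13.1, 9.83 and 7.07 TPM with NMN and 4.62, 11.8, 9.64 and 7.51 TPM with NR (log2 changes 2.58 and 2.57, SE 0.34; limma adjusted p = 8.46e-06 and 1.14e-05). Col1a2 measured 7.30, 18.3, 11.7 and 11.03 TPM with NMN and 9.99, 14.5, 12.2 and 9.97 TPM with NR (log2 change 1.56 for each, SE 0.39; limma adjusted p = 0.00309 and 0.00337). Library 1 was the lowest NMN library in 10 of the 13 genes and library 2 the highest in 11.

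Col3a1 was called with NR (log2 change 1.64, SE 0.53, limma adjusted p = 0.02) and not with NMN (1.20, limma adjusted p = 0.0745), and Col5a1 and Col27a1 likewise. The difference between NMN and NR was not called for any of them. The Col1a1, Col3a1, Col5a1 and Col6a1 calls with NR were lost without NR library 2. Fibroblast markers without Ly6a summed to 58.1, 150, 138 and 117 TPM in NMN libraries 1 to 4 and to 68.7, 144, 130 and 107 TPM in the NR libraries. Of 9 tested genes 6 were higher than cisplatin in each, where 15.1% (NMN) and 14.4% (NR) of all tested genes were. With Ly6a the sums were 792 to 1020 TPM with NMN, 786 to 945 TPM with NR and 853 to 1290 TPM with cisplatin. The part of these markers in the collagen levels was not tested.

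**Figure D5:**
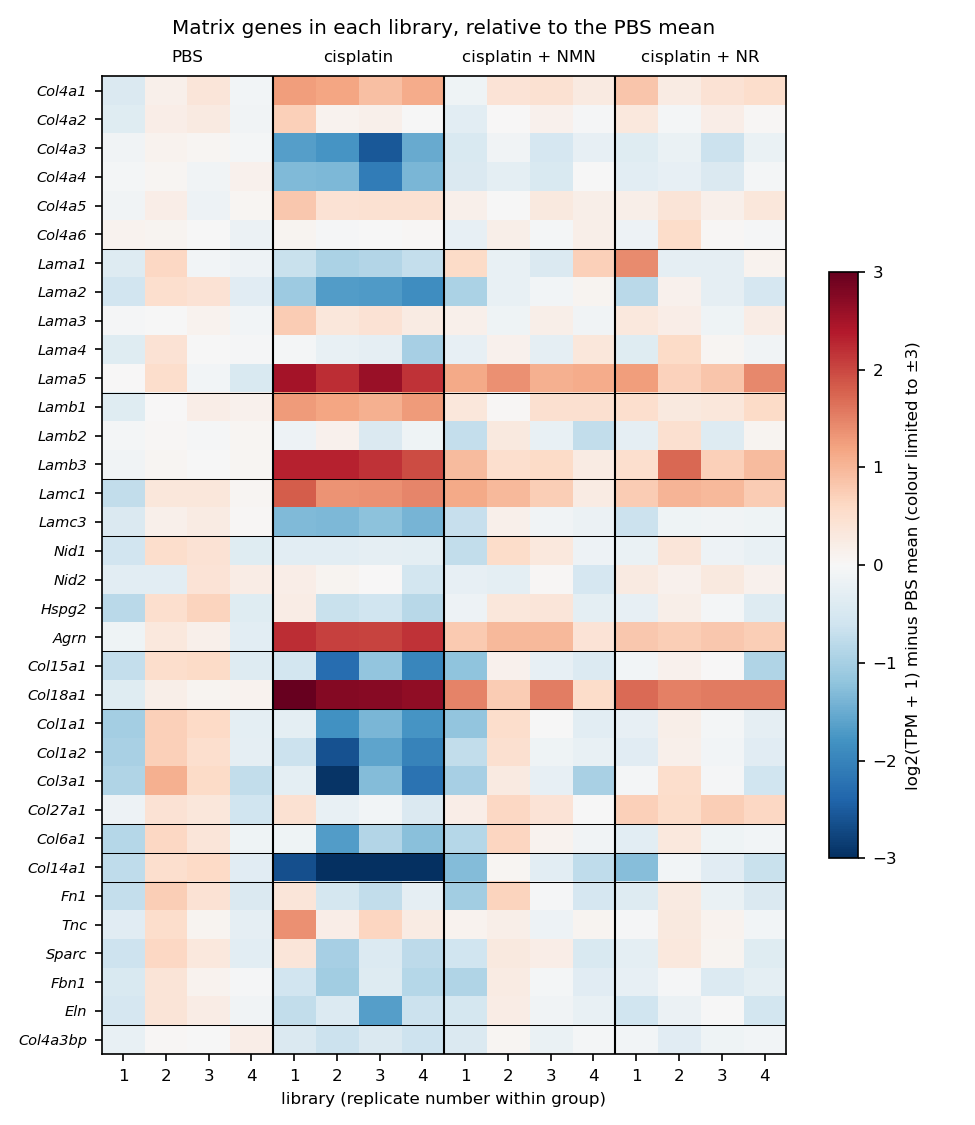
log2(TPM + 1) of 34 matrix genes in each of the 16 libraries, minus the mean of the PBS libraries, with colours limited to 3 in either direction; columns are libraries by replicate number and rows are ordered by role. Agrn, Col18a1, Lama5 and Lamc1 stay red in the NMN and NR columns, and PBS column 1 is blue for most genes, the lowest of its group in 33 of 45 tested genes.

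Against PBS, the precursor libraries differed in a few basement membrane genes and all calls were higher. With NMN 5 of the 45 genes were higher (among them Agrn, Col18a1, Lama5 and Lamc1) and 0 lower by limma, where 5.89% of all tested genes were higher and 0.116% lower; at an unadjusted p under 0.05 these were 7 and 0. With NR 7 were higher, these 5 with Lamb3 and Col13a1, and 0 lower (8.79% and 1.21% of all tested genes; 11 and 0 at an unadjusted p under 0.05). After median-of-ratios scaling the counts were 5 higher with NMN (5.68% of all genes higher, 0.741% lower) and 8 with NR (8.06% and 3.75%), and 0 lower in both. The counts of called genes, 5 and 7, are 11.1% and 15.6% of the 45 genes, a few genes above the background. Groups did not overlap upward for 4 of the 45 genes with NMN and 9 with NR (8.89% and 20%), where 8.77% and 11.8% of all tested genes did not. Col13a1 passed the filter on low values only through the NR libraries, and its call (limma adjusted p = 0.0395) was made in 16 of 25 other settings, whose adjusted p ranged from 0.0186 to 0.131; it was lost without any 1 PBS library and without NR library 1, 2 or 3.

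Col18a1 had the largest of these differences with NR (log2 change 1.58, SE 0.19, limma adjusted p = 1.23e-05) and Lama5 with NMN (1.17, SE 0.19, limma adjusted p = 0.000515). Lama5 was 1.05 higher with NR (SE 0.19, limma adjusted p = 0.000962), Col18a1 1.08 with NMN (SE 0.19, limma adjusted p = 0.000991), and Agrn 0.78 with each (SE 0.14, limma adjusted p = 0.00124 and 0.000846). The Lamc1 call with NMN had overlapping groups (limma adjusted p = 0.0442) and was made in only 9 of 26 other settings, whose adjusted p ranged from 0.0099 to 0.149. It was lost among others without PBS library 1 or 4 or NMN library 1, 2 or 3, where 3 genes were called higher, and without any 1 NR library. Of 8 injured tubule markers 7 were higher than PBS with each precursor, where 5.89% (NMN) and 8.79% (NR) of all tested genes were. The markers summed to 932 to 1880 TPM with NMN and 1460 to 1970 TPM with NR.

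Col4a3 and Col4a4 were not called against PBS, with log2 changes of -0.33 and -0.30 with NMN and -0.35 and -0.26 with NR (limma adjusted p from 0.277 to 0.403). The 4 NR libraries were all below the PBS libraries for Col4a3, the case for 1 of the 45 genes (2.22%). The share of all tested genes without overlap downward is not given, so nothing is read from this. None of the 13 interstitial collagens was called against PBS with either precursor by limma. Col27a1, not called with cisplatin alone (log2 change -0.06), measured 38.3 to 43.2 TPM with NR and 16.5 to 35.1 TPM with PBS, without overlap. Its log2 change was 0.66 (95% interval 0.21 to 1.11). It was called higher with the replicate block, with a minimum of 5 TPM, and without PBS library 2 or 3 or cisplatin library 1. Col1a2 measured 14.4 ± 7.30 TPM with PBS, 12.1 ± 4.59 TPM with NMN and 11.7 ± 2.15 TPM with NR (SD, n = 4). Of 27 matrix receptors 9 were higher than PBS with NMN and 12 with NR, where 5.89% and 8.79% of all tested genes were. Itga3, among them, was at 26.3 ± 9.06 and 28.3 ± 2.87 TPM.

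Between NMN and NR, 0 of the 45 genes and 0 of all 12960 tested genes were called (limma, 0% in each direction). At an unadjusted p under 0.05 there were 2 genes among the 45, Col18a1 and Nid2, both lower with NMN, and 370 among all genes. Col18a1 was 80.1 ± 27.3 TPM with NMN and 109 ± 6.0 TPM with NR (SD, n = 4; log2 difference -0.50, 95% interval -0.89 to -0.10, limma adjusted p = 1). Nid2 measured 3.35, 3.19, 4.23 and 2.61 TPM with NMN and 5.23, 4.65, 5.27 and 4.57 TPM with NR, without overlap (log2 difference -0.46, 95% interval -0.88 to -0.04), where groups did not overlap for 1.64% of all genes. For Agrn the 95% interval was -0.29 to 0.29, for Lama5 -0.28 to 0.52, for Col4a3 -0.36 to 0.41 and for Col1a2 -0.82 to 0.82. The precursors differ by the phosphate group of NMN, and no doses are given, so that these intervals bound differences at unknown doses.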

How the data were processed

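RNA of 16 mouse kidney samples was measured, 4 in each of 4 groups taken from the labels. The authors deposited 1 table of TPM values with 2 decimals, 23982 entries for 23935 symbols; entries with the same symbol were summed. Per the labels' protocols, total RNA was purified with RNeasy columns and libraries were made with a TruSeq kit. The submitters' processing notes name GRCm38 (mm10) and the tools STAR 2.4.1d, HTSeq 0.6.1, DESeq2 1.10.1 and Trim Galore. Neither the computation of TPM nor a strand setting is stated there or in the labels. Without strand, reads of overlapping genes such as Col4a1 and Col4a2 at their starts cannot be told apart. TPM keeps no read depth, so no counting interval or floor is given.

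TPM plus a pseudocount of 1 was put on the log2 scale, which understates changes of low genes, and 12960 symbols with at least 1 TPM in at least 4 libraries were fitted with limma 3.58.1 (R 4.3.3, trend and robust options, statmod 1.5.0). One fit held the 4 group means. The 6 pairwise comparisons were tested two-sided, and p-values were adjusted by Benjamini-Hochberg over all tested symbols and called under 0.05. A run on simulated data drew noise independently for each gene and library. It held no deviations shared by the genes of a library and cannot speak to them. Tables and figures were made with Python 3.11.15, numpy 2.4.6, pandas 2.3.3 and matplotlib 3.10.9. Genes were described in depth where the highest group mean was at least 5 TPM and at least 1 comparison was called, with Col1a1, Col1a2, Col3a1, collagen IV, Col18a1, the laminins, nidogens, proteoglycans and glycoproteins always included; the other genes are named for the account. From each other list, genes were named out of the 4 of smallest adjusted p for cisplatin against PBS. Genes that are counted in the lists but not named are not reported here. The genes and lists were chosen with earlier results of these data known. Alternatives were a pseudocount of 0.1, no minimum, a minimum of 5 TPM, median-of-ratios scaling, no mitochondrially encoded genes, other limma settings, array weights, a replicate block, only the compared groups, and each library left out.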

Additional observations from a re-analysis of the deposited data

Results flagged for a closer look

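Among 35 named genes, 140 groups of 4 libraries were searched for a library far from its group, by a gap over the group's range above Dixon's 95% critical value. Chance flags about 1 in 20 groups, and 6 of the 140 were found. With cisplatin, library 3 was the lowest for Col4a4 at 5.74 TPM, against 10.16 to 10.54 TPM in the others. Cisplatin library 1 was the highest for Col4a5 at 16.5 TPM, against 12.63 to 12.77 TPM, and for Hspg2 at 23.75 TPM, against 11.02 to 13.09 TPM. With NR, library 1 was the highest for Lama1 at 9.19 TPM, against 2.13 to 3.08 TPM, and the lowest for Lamc3 at 1.21 TPM, against 2.13 to 2.21 TPM. NR library 2 was the highest for Nid1 at 8.97 TPM, against 5.67 to 5.92 TPM. Without NR library 1, Lama1 was not called against cisplatin (limma, adjusted p of 0.0103 to 0.07 over 25 alternatives), whereas Col4a4 was called lower with cisplatin in each setting tried.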

How the results depend on the processing

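Of 78 calls for single named genes, 55 were made in every setting tried: 18 of 24 for cisplatin against PBS, 13 of 22 for NMN and 15 of 21 for NR against cisplatin, and 3 of 5 for NMN and 6 of 6 for NR against PBS. A minimum of 5 TPM, which tests fewer genes, left 11 genes lower with cisplatin, and 10 higher with NMN and 11 higher with NR than with cisplatin. The genes higher with NMN than with PBS were 3 with no minimum, with only the compared groups, and without the 3 libraries of lowest weight. Leaving out each replicate gave 9 to 12 higher and 15 to 20 lower genes for cisplatin against PBS, 8 to 20 and 8 to 11 for NMN and 12 to 17 and 7 to 9 for NR against cisplatin, and 3 to 5 (NMN) and 6 to 9 (NR) higher than PBS. Against PBS, the NMN count was 3 without PBS library 1 or 4 or NMN library 1, 2 or 3; the cause was not tested. The sign turned for 3 uncalled changes with cisplatin: Col4a2 (-0.08 after median-of-ratios scaling and -0.08 without the 3 libraries), Nid2 (-0.18 to 0.09 with each replicate left out, above 0 without PBS 3, PBS 4 or cisplatin 4) and Col27a1 (-0.27 to 0.08, above 0 without PBS 2, PBS 3 or cisplatin 4). The labels do not say what a replicate number marks, and in no pair of groups were all 4 same-number correlations of deviations over 0.1, so the groups were compared without pairing. Among PBS, NMN and NR, 8 of 12 were over 0.1 and 12 of 12 correlated best with their own number, a hint from the data of shared deviations; with the cisplatin group these were 1 and 4 of 12. With the replicate block, cisplatin against PBS kept 30 calls in number (Tnc lost, Lama1 gained), both precursors against cisplatin kept the same calls (26 and 25), and against PBS NMN had 4 and NR 9. Unknown depth limits what can be said of genes near 1 TPM.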
